A study of Homo sapiens with 18 samples.

Results

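The first 2 stringent washing cycles that followed staining of a microarray were examined, across all 54675 probe sets of the HG-U133 Plus 2.0 array. A stringent wash is a rinse in a warm, low-salt buffer after hybridization, and it is meant to strip RNA that is held loosely by the probes. Scans taken after 2 additional cycles were compared with scans of the same array taken after 0 additional cycles, in 4 pairs that use 8 of the 18 scans of the series. The RNA came from untreated FTC-133 cells, a human line of follicular thyroid carcinoma, and aliquots of 1 sample were hybridized to every array. Array A had seen 0 stringent cycles before staining, and its pairs are A2 against A1 in the first series and A6 against A5 in the second. Array B had been given 2 stringent cycles before each staining, and its pairs are B2 against B1 and B6 against B5. By then array A had gone through 2 cycles in total on scan A2 against 0 on A1, and 19 on A6 against 17 on A5. Array B had gone through 4 cycles on B2 against 2 on B1, and 23 on B6 against 21 on B5. Staining was done with a streptavidin-phycoerythrin conjugate, an antibody against it and the conjugate again, and the same staining was repeated before the second series.

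After hybridization an oligonucleotide probe holds its perfectly matching target and also a mixture of fragments that match only in part and bind more weakly. Stringent washing removes both, in general the weakly bound fragments faster. Target and fragments carry the same biotin label, so the stain reads their sum, and a probe set summarises several such probes for 1 transcript. Each of these probes is paired on the array with a probe that has a mismatch in its middle. The paper reports that washing strips specific targets more strongly from the mismatch probes. With 1 signal per probe set, the part of the mismatch probes in a change was not tested.

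The values are MAS5 signals, 1 linear value per probe set and scan, which the authors had scaled so that every scan has the same trimmed mean, 250.02 to 250.06. A loss shared by all probe sets is therefore not visible, and only changes of probe sets relative to each other can be measured. Here a level is given as a multiple of the median signal of its scan, and a change as the log2 ratio of the multiple at 2 additional cycles to that at 0. The median signal itself was 107 on A2 against 136 on A1, 93.2 on A6 against 111.8 on A5, 60.5 on B2 against 63.8 on B1 and 60.4 on B6 against 63.3 on B5. The median was lower after 2 cycles in each pair, by 0.35 and 0.26 on the log2 scale for the pairs of array A and by 0.08 and 0.07 for those of array B. The spread of a scan between its 5th and 95th percentile probe set moved with it on array A, where the 5th percentile lay at -3.20 on A2 against -2.30 on A1 relative to the median. Since all scans carry the same RNA, every p-value below measures technical spread between scans of 2 arrays and says nothing on differences between cells. The brightness of a probe set also depends on its probes, so a bright probe set is not necessarily one of an abundant transcript.

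Over all probe sets, 0 were higher and 0 were lower after 2 cycles in limma with the pair as a block, at a Benjamini-Hochberg adjusted p under 0.05 (0% in each direction). The smallest adjusted p was 0.138, and 4495 probe sets were higher and 1901 lower by unadjusted p under 0.05 (8.22% and 3.48%). This count depends on 1 pair. Without the second-series pair of array B, 632 probe sets rose and 40 fell (1.16% and 0.0732%), and 619 of those that rose were in the highest of 10 groups of probe sets by brightness. Without any one of the other pairs 0 passed. Limma here takes the 4 pairs as independent, although they are 2 pairs on each of 2 arrays. This limit holds for every limma SE and p-value over the 4 pairs below. On the signals as deposited, with no centring, 114 probe sets were higher and 3 lower, and on signals anchored on the 100 brightest probe sets 0 were higher and 19578 lower. The sign of a change was above 0 in 4 of 4 pairs for 6976 probe sets (12.8%) and below 0 for 4617 (8.44%), and these shares are the background for the counts that follow.

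Brightness separated the probe sets. Probe sets were sorted into 10 equal groups, or deciles, by their signal on scan C1, the first scan of array C. Array C was washed by the standard protocol of 6 cycles before staining and enters none of the 4 pairs. C1 is nevertheless a scan of the same RNA after stringent washing, so its ranking is not independent of how signals respond to washing. Which part of the pattern comes with this ranking was not tested. The same limit holds further on wherever a probe set is chosen by its brightness on C1. In the highest decile, with signals of 822 to 27839 on C1, the median change was 0.76 for A2 against A1, 0.45 for A6 against A5, 0.19 for B2 against B1 and 0.14 for B6 against B5. In the lowest decile, with signals up to 5.33 on C1, the same medians were -0.72, -0.28, 0.09 and 0.03. The bright end thus gained on the scan median in every pair, while the dim end lost on array A and gained slightly on array B. The common sign of the bright end is tied to the lower median at an equal trimmed mean, given above. It is therefore no separate result.

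**Figure D1:**
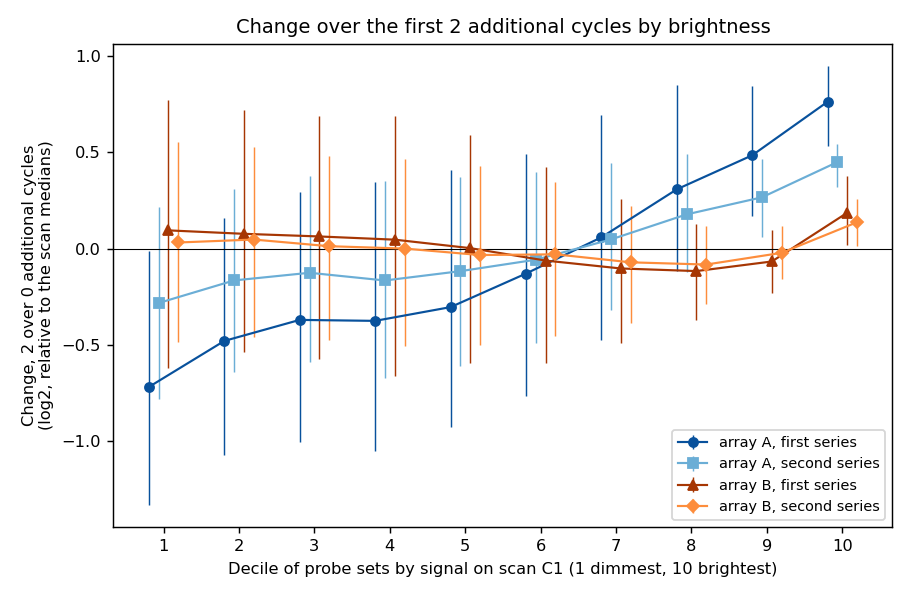
Median change from 2 additional against 0 additional cycles, on the log2 scale and relative to the scan medians, in 10 deciles of probe sets ordered by signal on scan C1; each line is 1 pair of scans and bars span the 25th to 75th percentile of probe sets. The lines of array A climb to 0.76 and 0.45 in the highest decile, and those of array B dip to -0.12 and -0.08 in the eighth before they reach 0.19 and 0.14, with the end deciles of array B in the other order (-0.09) under quantile normalization.

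The distance between the highest and the lowest decile came to 1.48 and 0.73 in the pairs of array A, and to 0.09 and 0.11 in those of array B. As ratios these are 2.80, 1.66, 1.07 and 1.08. The mean over the pairs was 0.60 ± 0.66 (SD, n = 4), with a two-sided exact sign-flip p of 0.125, which is the smallest that 4 pairs allow. This mean was 0.31 without the pair A2 and A1, and 0.06 with quantile normalization. The sign-flip test takes the 4 pairs as independent, although they are 2 pairs on each of 2 arrays. The course between the ends also had another shape on each array. On array A the median climbed through the sixth decile (-0.13 and -0.06) and the eighth (0.31 and 0.18). On array B it was lowest in the eighth decile, at -0.12 and -0.08, at which brightness the medians of array A were well above 0. Of the ninth decile's probe sets 85.0% and 80.8% were above 0 on array A, against 38.8% and 45.8% on array B. With quantile normalization, which gives all scans 1 distribution of signals, the mean distance between the end deciles was 0.21 on array A, compared with 1.11 after median centring, and -0.09 on array B, compared with 0.10. Its size on both arrays and its sign on array B thus depend on the scaling.

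In the highest decile 3455 of 5468 probe sets (63.2%) were higher in 4 of 4 pairs and 13 were lower (0.238%), against 12.8% and 8.44% of all probe sets. In the lowest decile 167 of 5467 (3.05%) were higher in 4 of 4 pairs and 644 (11.8%) lower. Within the highest decile the change went on growing with brightness. Among the 3467 probe sets of rank 2001 to 5467 the medians were 0.64, 0.38, 0.07 and 0.08, and among those of rank 1001 to 2000 they were 0.83, 0.49, 0.31 and 0.20. For ranks 501 to 1000 they were 0.92, 0.53, 0.50 and 0.28, for ranks 101 to 500 they were 0.98, 0.56, 0.66 and 0.33, and for the brightest 100 they were 0.96, 0.60, 0.68 and 0.48. Among the brightest 1000 the median thus differed little in the first pair of array A, and in the other pairs it was higher the brighter the group.

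The changes of single probe sets were more alike between pairs among bright probe sets. Over all probe sets Pearson's r between the changes of the A pairs was 0.27, between those of the B pairs 0.05, and between an A and a B pair 0.003 to 0.02. In the highest decile the 6 coefficients between pairs lay between 0.25 and 0.45, and in the lowest between -0.01 and 0.17. These correlations run over probe sets of the same 2 arrays, which are not independent of each other.

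The hybridization controls, foreign transcripts spiked in at rising amounts, gave the same comparison at a known order of concentration. They are bioB, bioC and bioD from Escherichia coli and cre from the phage P1. The 4 probe sets of cre, the most concentrated, had mean changes of 0.96, 0.65, 0.67 and 0.44 in the pairs A2 against A1, A6 against A5, B2 against B1 and B6 against B5. The 4 of bioD had changes of 0.93, 0.52, 0.45 and 0.30. The 4 of bioC had changes of 0.97, 0.48, 0.15 and 0.19, and the 6 of bioB, the least concentrated, of 0.64, 0.55, -0.01 and 0.12. On array B the change was ordered by brightness, from bioB to cre, while in the first pair of array A bioC, bioD and cre had nearly the same change.

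**Figure D2:**
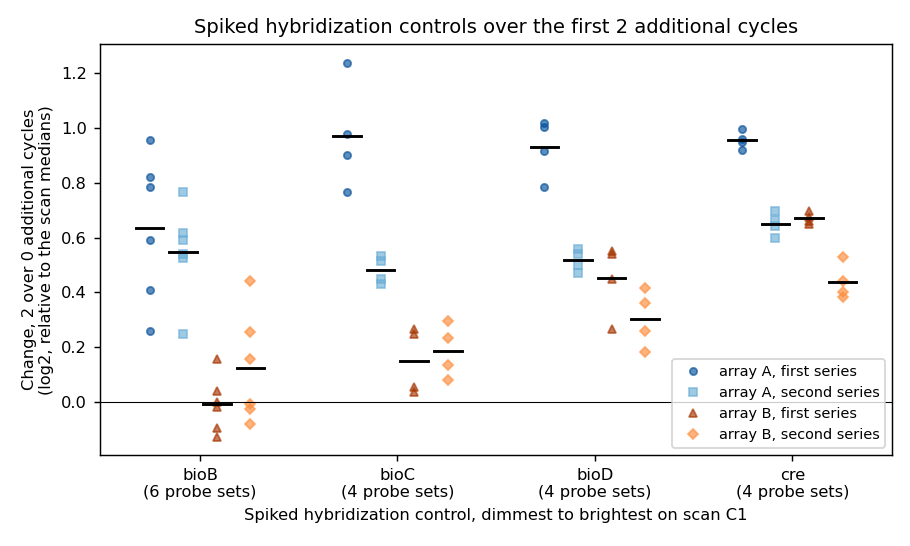
Change from 2 additional against 0 additional cycles (log2, relative to the scan medians) of the spiked hybridization controls; each point is 1 probe set in 1 pair of scans and each bar the mean of a control in that pair. On array B the means climb from -0.01 and 0.12 for bioB to 0.67 and 0.44 for cre, on array A cre lies at 0.96 and 0.65, and with quantile normalization cre minus bioB turns to -0.26.

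One cre probe set, aimed at the 3 prime end, stood at 174 times the scan median on A2 against 90.3 on A1, at 269.8 on A6 against 169.96 on A5, at 476 on B2 against 302 on B1 and at 501 on B6 against 383 on B5. The level after 2 cycles was the higher one in 4 of 4 pairs, and with quantile normalization the mean change of this probe set was -0.01. A probe set for the 3 prime end of bioB stood at 1.82 on A2 against 1.03 on A1, at 3.67 on A6 against 2.43 on A5, at 5.52 on B2 against 6.03 on B1 and at 5.84 on B6 against 6.18 on B5, so that the arrays differed in sign. Cre minus bioB averaged 0.35 ± 0.24 (SD, n = 4), and with quantile normalization -0.26. None of these 18 probe sets passed in limma, where the smallest adjusted p among them was 0.138.

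The 27 probe sets for Bacillus subtilis transcripts (dap, lys, phe, thr and trp) were dim on C1, with signals of 1.70 to 45.8. Their changes scattered from -2.13 to 1.65 in the first pair of array A and from -1.55 to 1.21 in the second pair of array B. Of the 27, 1 was higher and 4 were lower in 4 of 4 pairs. Other controls are human. The probe set for Alu repeats stood at 172 on A2 against 91.0 on A1, at 159 on A6 against 90.5 on A5, at 464 on B2 against 296 on B1 and at 283 on B6 against 193 on B5, and its changes of 0.92, 0.81, 0.65 and 0.55 were all positive. The 3 probe sets for 18S rRNA averaged 0.26, 0.20, 0.34 and 0.15. Of these the 5 prime set had changes of -0.18, -0.06, 0.54 and 0.12, and the others were positive in 4 of 4 pairs.

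The gene lists were then read against these backgrounds, with 1 probe set, the brightest on C1, standing for each of 19775 genes. Over all genes, 3776 (19.1%) were higher in 4 of 4 pairs and 1363 (6.89%) were lower, and the median changes were 0.26, 0.18, 0.04 and 0.03 in the pairs A2 against A1, A6 against A5, B2 against B1 and B6 against B5. Of 24 lists, 11 had a median above that of all genes in 4 of 4 pairs and 2 had one below it. All 11 had a median C1 signal of 824 or more. With quantile normalization, 4 lists were above in 4 of 4 pairs, and the mean distance to all genes turned negative, at -0.01 in each case, for translation factors, nuclear oxidative phosphorylation, chaperones and the mesenchymal and matrix list. The 10 brightest lists hold 265 genes, of which 220 (83.0%) were higher in 4 of 4 pairs and 2 were lower. Of the probe sets of C1 rank 101 to 500, whatever their gene, 375 of 400 were higher in 4 of 4 pairs. For ranks 501 to 1000 this was 474 of 500, for ranks 1001 to 2000 it was 888 of 1000, and for ranks 2001 to 5467 it was 1623 of 3467. The counts in the lists below are therefore not read as a trait of their genes apart from brightness. No member of any list passed in limma over the 4 pairs, and 123 list entries did without the second-series pair of array B, all of them higher. Over all probe sets that fit had 632 higher (1.16%), and in the highest decile 619 of 5468. Without any one of the other pairs 0 probe sets passed. The list counts below without the second-series pair of array B thus depend on which pair is left out.

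**Figure D3:**
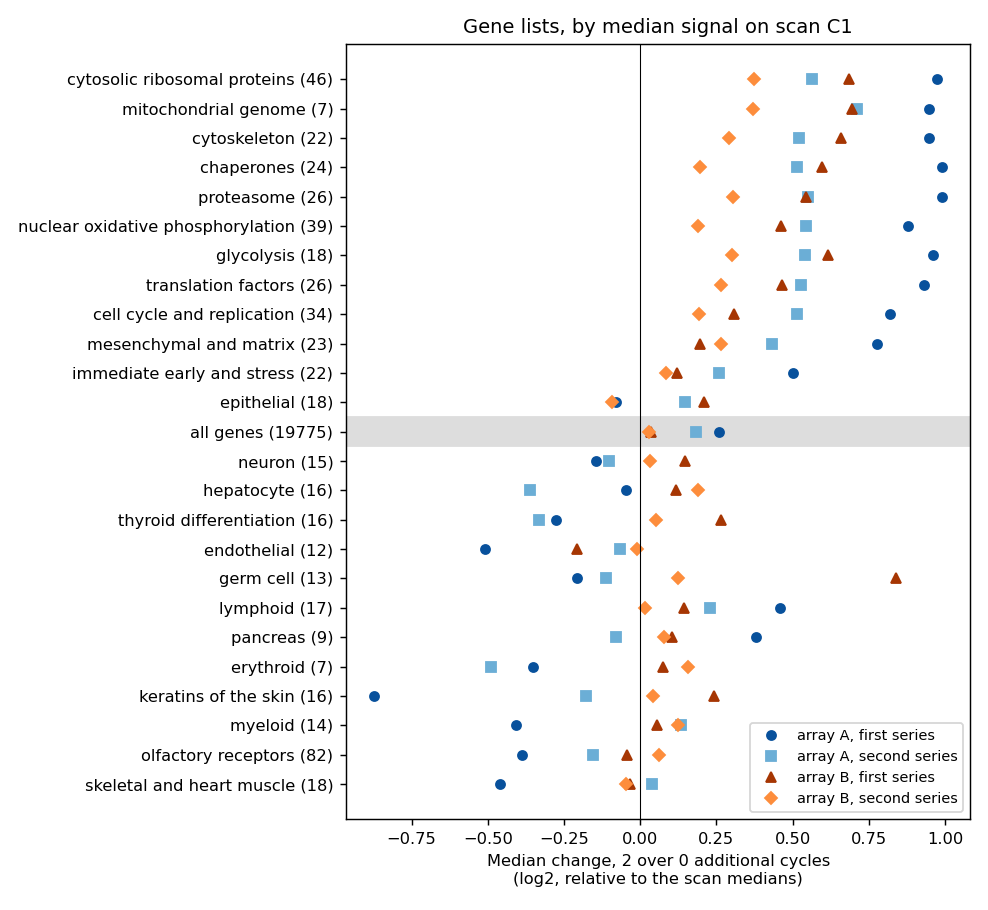
Median change from 2 additional against 0 additional cycles (log2, relative to the scan medians) in 24 gene lists and over all genes (grey band), ordered by median signal on scan C1 with the brightest at the top; each point is 1 pair of scans and the number of genes is in brackets. The 11 lists at the top lie to the right of all genes in every pair, from 0.97, 0.56, 0.69 and 0.37 for ribosomal proteins to 0.50, 0.26, 0.12 and 0.09 for immediate early and stress genes, and with quantile normalization this holds for 4 lists.

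Cytosolic ribosomal proteins, the structural proteins of the ribosome, were the brightest list. Their median change was 0.97, 0.56, 0.69 and 0.37 over 46 measured genes, and 42 (91.3%) were higher in 4 of 4 pairs while 0 were lower. Of the 46 genes, 44 were in the highest decile, and the share is near that of equally bright probe sets given above. RPS23, a protein of the small subunit, stood at 138 times the scan median on A2 against 70.2 on A1, at 169 on A6 against 119 on A5, at 467 on B2 against 288 on B1 and at 394 on B6 against 318 on B5. Its level after 2 cycles was the higher in each pair, with a mean change of 0.62 ± 0.14 (SE, n = 4 pairs; limma adjusted p = 0.138), but it was -0.03 with quantile normalization. RPL7, of the large subunit, had changes of 0.89, 1.01, 0.69 and 0.69. RPS10, of the small subunit, had changes of 1.00, 0.55, 0.71 and 0.40. Without the second-series pair of array B, 44 of the 46 genes passed and all were higher, with RPS23, RPL7 and RPS10 each at an adjusted p of 0.0291. Without any one of the other pairs 0 of the 46 passed. The list's lowest members were RPL27A at 0.04 and RPLP2 at 0.05, both named here after their values were seen.

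Translation factors, which load ribosomes and drive elongation, had medians of 0.93, 0.53, 0.47 and 0.26 over 26 genes, and 22 were higher in 4 of 4 pairs. EEF1A1, the elongation factor that delivers aminoacyl-tRNA, stood at 171 on A2 against 87.6 on A1, at 150.2 on A6 against 94.3 on A5, at 451 on B2 against 279.8 on B1 and at 316 on B6 against 218 on B5. The 4 pairs thus had the same sign, and the mean change was 0.72 ± 0.12 (SE; limma adjusted p = 0.138). EIF1, a factor for start codon selection, had changes of 0.98, 0.58, 0.69 and 0.26, and EIF4G2 of 1.03, 0.60, 0.55 and 0.28. With quantile normalization these 2 lay at -0.03 and -0.04. The genes of the list without a common sign included EIF4A2, an RNA helicase of initiation, named after its values were seen. Its changes were -2.91, -2.20, 0.72 and -1.71, read by the dimmest probe set of the list, at 0.127 times the median of C1. Without the second-series pair of array B, 9 of the 26 passed.

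Glycolytic enzymes had medians of 0.96, 0.54, 0.62 and 0.30 over 18 genes, of which 14 were higher in 4 of 4 pairs and 8 passed without the second-series pair of array B. LDHA, which turns pyruvate into lactate, stood at 146 on A2 against 75.5 on A1, at 135 on A6 against 84.4 on A5, at 398 on B2 against 256 on B1 and at 278 on B6 against 176 on B5. ENO1, an enolase, had changes of 1.00, 0.58, 0.68 and 0.52. Both were higher after 2 cycles in each pair. GAPDH, read at the 3 prime end of its transcript, had changes of 0.91, 0.81, 0.66 and -0.18, and a second probe set at the 5 prime end of 0.95, 0.62, 0.67 and 0.58. The 2 ends of 1 transcript differed in sign in the second-series pair of array B, and in the other pairs both were positive, although the 3 prime set lay at -0.12 over all pairs with quantile normalization. ALDOC at -0.01, ENO2 at 0.10 and HK2 at 0.11 were the lowest members, named after their values were seen.

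The proteasome, the complex that degrades ubiquitin-marked proteins, had medians of 0.99, 0.55, 0.54 and 0.31, with 25 of 26 genes higher in 4 of 4 pairs. PSMC2, an ATPase of its cap, stood at 87.2 on A2 against 41.3 on A1, at 125 on A6 against 73.0 on A5, at 318 on B2 against 191 on B1 and at 206 on B6 against 142 on B5. PSMB7, of the catalytic core, had changes of 1.06, 0.53, 0.68 and 0.29, and lay at -0.01 with quantile normalization. PSMB1, also of the core, had changes of 1.06, 0.77, 0.71 and 1.62, so its last pair stood apart from its own others and from the list. Without that pair 11 of the 26 genes passed, PSMB1 included at a change of 0.85.

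Transcripts of the mitochondrial genome, which encode subunits of the respiratory chain, had medians of 0.95, 0.71, 0.70 and 0.37 over 7 genes, of which 5 were higher in 4 of 4 pairs. COX1 stood at 179 on A2 against 94.6 on A1, at 107 on A6 against 45.6 on A5, at 499.5 on B2 against 306 on B1 and at 455 on B6 against 280.1 on B5. COX2 had changes of 0.95, 0.58, 0.75 and 0.37, and ND4 of 0.98, 0.81, 0.70 and 0.44. All 3 had 1 sign in 4 of 4 pairs, although COX2 lay at -0.001 with quantile normalization. Nuclear genes of oxidative phosphorylation had medians of 0.88, 0.54, 0.46 and 0.19, and 35 of 39 were higher in 4 of 4 pairs. ATP5F1A, a subunit of the ATP synthase, had changes of 1.00, 0.60, 0.71 and 0.15. COX7C had changes of 1.15, 1.42, 0.80 and 0.49, with its largest value in the second-series pair of array A. UQCRB, of complex III, had changes of 0.93, 0.54, 0.62 and 0.26. With quantile normalization ATP5F1A lay at -0.03 and UQCRB at -0.06. Without the second-series pair of array B, 5 of the 7 mitochondrial and 13 of the 39 nuclear genes passed.

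Chaperones, which help proteins to fold, had medians of 0.99, 0.52, 0.60 and 0.20, with 21 of 24 higher in 4 of 4 pairs. HSPD1, the mitochondrial chaperonin, stood at 126 on A2 against 59.2 on A1, at 154 on A6 against 111 on A5, at 369 on B2 against 249 on B1 and at 440.3 on B6 against 214 on B5. HSP90AA1 had changes of 0.99, 0.51, 0.64 and 0.37, and PPIA, a prolyl isomerase, of 0.91, 0.36, 0.68 and 0.33. These 3 were higher after 2 cycles in each pair, and with quantile normalization HSP90AA1 lay at -0.03 and PPIA at -0.08. Cytoskeletal genes had medians of 0.95, 0.52, 0.66 and 0.29, with 17 of 22 higher in 4 of 4 pairs. TMSB10, a thymosin that binds actin monomers, had changes of 1.01, 0.54, 0.70 and 1.01, TMSB4X of 0.95, 0.62, 0.72 and 0.51, and ACTB of 0.93, 0.66, 0.69 and 0.87. Another ACTB probe set, at 411 times the median of C1, had 0.97, -0.04, 0.63 and 0.05, and one at 405 times was higher in 4 of 4 pairs. In each of the chaperone and cytoskeleton lists 13 genes passed without the second-series pair of array B.

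Cell cycle and replication genes reached only 0.82, 0.51, 0.31 and 0.19 in the median, with 27 of 34 higher in 4 of 4 pairs. TYMS, the enzyme that makes thymidylate, stood at 117 on A2 against 56.5 on A1, at 156 on A6 against 101 on A5, at 376 on B2 against 231 on B1 and at 393 on B6 against 322 on B5. CCNB1, the mitotic cyclin, had changes of 0.92, 0.51, 0.39 and 0.56, and PCNA, the sliding clamp of DNA polymerase, of 0.92, 0.52, 0.54 and 0.30. With quantile normalization TYMS lay at -0.01 and PCNA at -0.02. Of the 34 genes 1 passed without the second-series pair of array B. Immediate early and stress genes, which respond within minutes to signals, had the smallest shift among the 11 lists, at 0.50, 0.26, 0.12 and 0.09. Of 22 genes 9 were higher in 4 of 4 pairs. JUND, a transcription factor, had changes of 0.93, 0.52, 0.46 and 0.34 (-0.02 with quantile normalization), IER3 of 1.01, 0.42, 0.41 and 0.09, and HMOX1, which degrades heme, of 0.80, 0.52, 0.17 and 0.19.

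Markers of cell identity were of mixed brightness. Of the mesenchymal and matrix genes FN1, TGFBI and VIM were the brightest on C1. FN1, fibronectin, stood at 128 on A2 against 64.8 on A1, at 111 on A6 against 74.5 on A5, at 438 on B2 against 277 on B1 and at 398 on B6 against 259 on B5. Its other probe sets at 363, 337 and 6.07 times the median of C1 were also higher in 4 of 4 pairs. The FN1 set at 355 times had -0.10 for B6 against B5, and that at 5.53 times had both signs. The FN1 set at 4.89 times was lower in each pair, with -0.04, -0.28, -0.92 and -0.51. VIM, the intermediate filament protein vimentin, had changes of 0.96, 0.66, 0.67 and 0.58, and TGFBI, a matrix protein, of 0.97, 0.42, 0.69 and 0.31, but TGFBI lay at -0.03 with quantile normalization. The mesenchymal and matrix list of 23 genes had medians of 0.78, 0.43, 0.20 and 0.27, and it held 12 genes that were higher in 4 of 4 pairs and 2 that were lower. The lower ones were COL1A1, a collagen chain, with changes of -0.49, -0.31, -0.40 and -0.21, and LUM, a matrix proteoglycan, with -0.74, -0.72, -0.28 and -0.50, both named after their values were seen. Both were dimmer than most of the list, at 6.80 and 1.21 times the median of C1. The epithelial list of 18 genes had medians of -0.08, 0.15, 0.21 and -0.09, and 3 of its genes were in the highest decile. TJP1, a tight junction protein, had changes of 0.85, 0.54, 0.33 and 0.22 (-0.04 with quantile normalization), KRT7, a simple epithelial keratin, of 1.02, 0.52, 0.30 and 0.25, and KRT18 of 1.01, 0.54, 0.40 and -0.04.

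Thyroid differentiation genes were mostly dim. Of 16 measured genes 0 were in the highest decile, and TG, the precursor protein of thyroid hormone, and TSHR, the thyrotropin receptor, lay at 0.80 and 0.76 times the median on C1. The lineage factors NKX2-1 and PAX8 were at 15.0 and 14.9 times that median. The list's median changes were -0.28, -0.33, 0.26 and 0.05, and 2 genes were higher in 4 of 4 pairs and 0 lower. PAX8 stood at 10.7 on A2 against 6.91 on A1, at 13.9 on A6 against 11.1 on A5, at 14.0 on B2 against 11.4 on B1 and at 14.1 on B6 against 11.7 on B5, higher after 2 cycles in each pair (0.38 ± 0.14, SE, n = 4 pairs; limma adjusted p = 0.348). This holds for its brightest probe set. Of its dimmer ones, that at 1.55 times the median of C1 was also higher in 4 of 4 pairs, and the others had no common sign. NKX2-1 stood at 7.09 on A2 against 6.21 on A1, at 5.72 on A6 against 8.01 on A5, at 10.7 on B2 against 11.4 on B1 and at 12.7 on B6 against 11.4 on B5, with no common sign. TG had changes of -0.92, -0.68, 1.09 and 0.77, with opposite signs on the arrays.

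Lists of genes of other tissues served as a measure of dim probe sets. Their median C1 signals lay below that of all genes, 101.1, in each of 11 lists. Olfactory receptors, the largest list with 82 genes, had medians of -0.39, -0.16, -0.04 and 0.06, and 8 (9.76%) were higher and 12 (14.6%) lower in 4 of 4 pairs. Endothelial markers, at -0.51, -0.06, -0.21 and -0.01, and skeletal and heart muscle genes, at -0.46, 0.04, -0.03 and -0.05, were the lists below all genes in 4 of 4 pairs. Other dim lists did not share this. Lymphoid genes, with a median C1 signal of 30.6, had medians of 0.46, 0.23, 0.14 and 0.01, germ cell genes of -0.21, -0.11, 0.84 and 0.12, and pancreas genes of 0.38, -0.08, 0.11 and 0.08. Some members of such lists were bright. IL7R, the interleukin 7 receptor, at 179 times the median of C1, had changes of 0.97, 0.52, 0.70 and 0.44. VCAN, a matrix proteoglycan counted in the myeloid list, at 138 times that median, had changes of 0.84, 0.65, 0.53 and 0.13. Haemoglobin beta (HBB), of the seventh decile at 2.10 times the median and so not among the bright ones, had changes of 0.77, 1.07, 0.34 and 0.16. It was the only 1 of the 7 erythroid genes that was higher in 4 of 4 pairs, while 2 were lower. The medians of the erythroid list were -0.35, -0.49, 0.07 and 0.16.

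The genes with the largest changes among probe sets of 1 symbol were of moderate or low brightness and none passed in limma. A bright probe set with several symbols, described further on, had a larger mean change, 3.02. The genes were taken from 22618 probe sets with 1 symbol and a mean signal above the median, and had 1 sign in 4 of 4 pairs. The 10 highest were RBM45, EIF1, CDK15, PRDM6, B3GALT5, NKAPP1, HCN2, NCOA1, SLC43A2 and TSGA10IP, with mean changes of at least 1.38 and adjusted p of 0.157 to 0.241. RBM45, which encodes an RNA-binding protein, stood at 1.86 on A2 against 0.386 on A1, at 1.74 on A6 against 0.225 on A5, at 4.30 on B2 against 3.61 on B1 and at 3.40 on B6 against 2.38 on B5. Its changes of 2.27 and 2.95 on array A were far above the 0.25 and 0.51 of array B. SLC43A2, an amino acid transporter, stood at 2.16 on A2 against 0.619 on A1, at 1.94 on A6 against 0.393 on A5, at 3.54 on B2 against 1.72 on B1 and at 1.48 on B6 against 1.11 on B5. It was the only one of the 20 to pass without the second-series pair of array B (1.72, adjusted p = 0.0484). TSGA10IP had the most even changes of the 10, at 1.96, 1.17, 1.06 and 1.33. NCOA1, a coactivator of nuclear receptors, had the least even ones, at 3.44, 0.89, 0.54 and 0.75.

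The 10 lowest were GARIN3, ADAM3A, TMEM259, ACTG1P25, RNFT1, WIPF1, RBMXL1, RIF1, TRIM6 and SMCO1, with mean changes of -1.53 to -1.34 and adjusted p of 0.145 to 0.348. TRIM6, a ubiquitin ligase, stood at 0.695 on A2 against 2.21 on A1, at 0.645 on A6 against 2.01 on A5, at 1.02 on B2 against 1.78 on B1 and at 0.622 on B6 against 1.51 on B5. The level after 2 cycles was the lower one in each pair. TMEM259, a membrane protein, had changes of -0.82, -2.68, -1.63 and -0.68. ADAM3A, a pseudogene in man, had changes of -0.59, -0.98, -4.24 and -0.20, so that 1 pair supplied most of its mean. These 20 genes had C1 signals of 7.23 to 294, and none was in the highest decile.

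**Figure D4:**
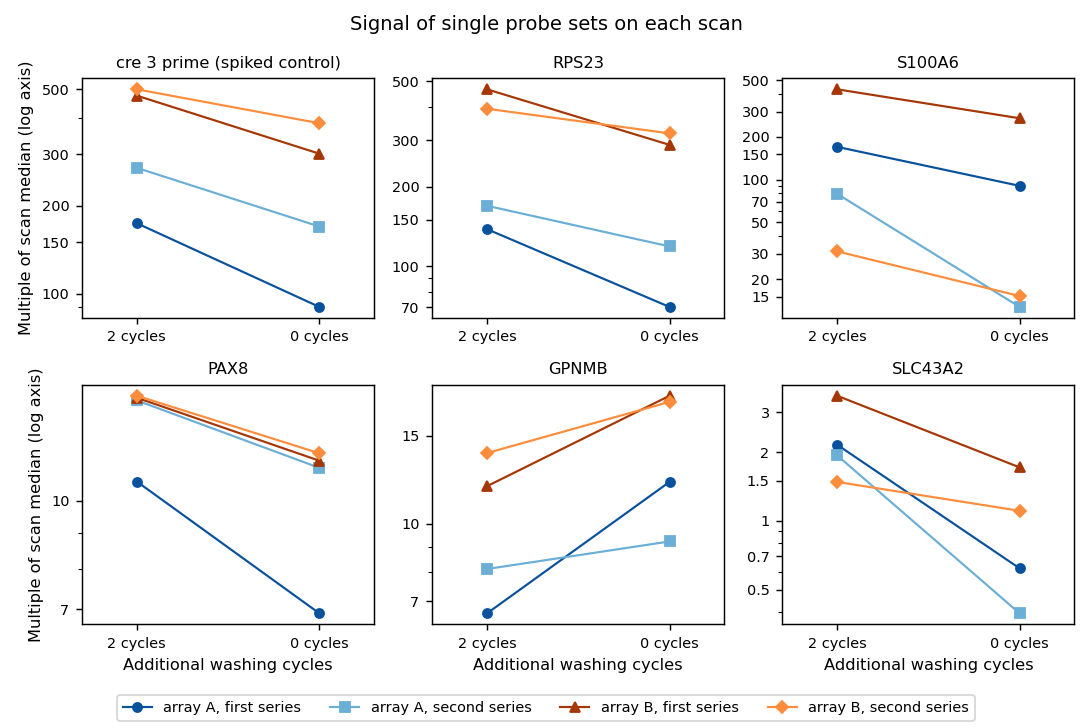
Signal of 6 probe sets as a multiple of the scan median (log axis) at 2 additional and at 0 additional cycles; each line joins the 2 scans of 1 pair. The cre control, RPS23, S100A6, PAX8 and SLC43A2 lie higher at 2 cycles in 4 of 4 pairs, with S100A6 at 79.4 and 31.3 against 12.7 and 15.2 in the second series, and GPNMB lies lower in 4 of 4; with quantile normalization the mean changes of cre and RPS23 are -0.01 and -0.03.

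Bright probe sets with changes below 0 in every pair were rare. The 13 of the highest decile that were lower in 4 of 4 pairs, named after their values were seen, included GPNMB, POLR2K, STAMBP, MRPS31, RBM8A, OSBPL10, GFM1, VPS37A, SH3RF1 and UGGT2. GPNMB, a transmembrane glycoprotein, stood at 6.62 on A2 against 12.1 on A1, at 8.12 on A6 against 9.22 on A5, at 11.9 on B2 against 18.1 on B1 and at 13.9 on B6 against 17.5 on B5. Its mean change was -0.50 ± 0.16 (SE, n = 4 pairs; limma adjusted p = 0.266). POLR2K, a subunit shared by the RNA polymerases, had changes of -0.46, -0.26, -0.09 and -0.25. The remaining mean changes lay between -0.26 and -0.07.

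The brightest 1000 probe sets on C1 had less even changes in the second series than in the first. The spread (SD) over these probe sets was 0.25 for A6 against A5, compared with 0.13 for A2 against A1, and 0.37 for B6 against B5, compared with 0.12 for B2 against B1. In the second series 8 lay more than 1 above the median of the group on array A, and 14 lay above and 2 below it on array B. In the first series 0 of the 1000 lay more than 1 from it. Those named below were chosen after their values were seen. The paper on these arrays describes that some probes reached the upper limit of the scanner in the second series. The deposited signals hold no mark of such probes, so levels and changes of very bright probe sets on A5, A6, B5 and B6 may rest on truncated intensities, and the part of this limit in them was not tested.

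**Figure D5:**
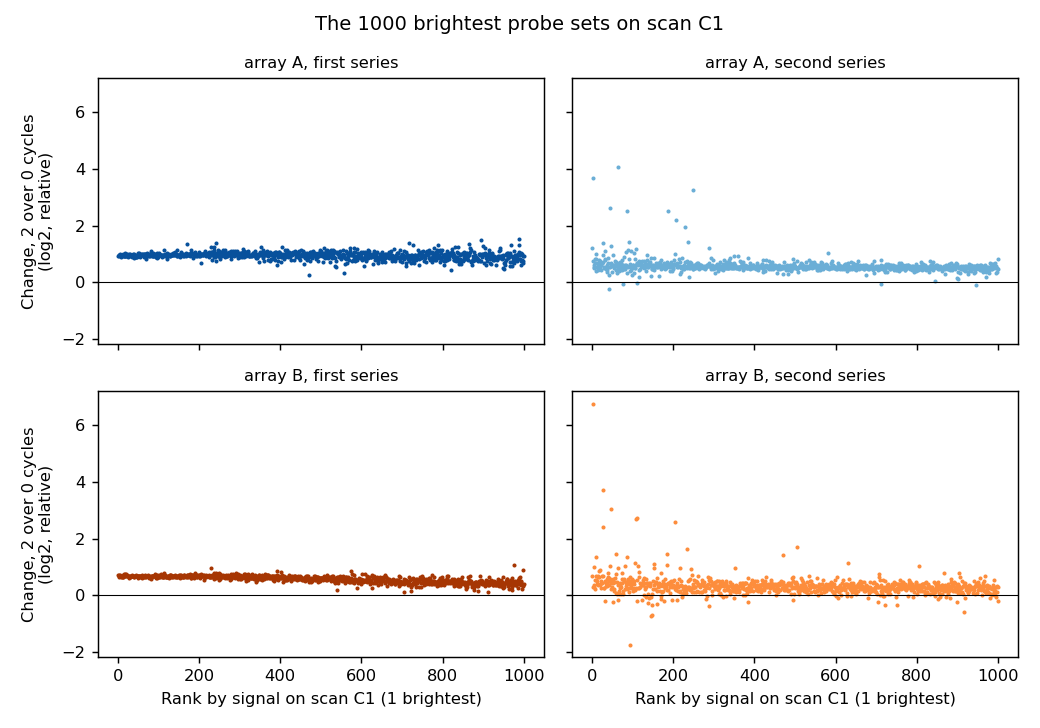
Change from 2 additional against 0 additional cycles (log2, relative to the scan medians) of the first 1000 probe sets by C1 signal, in rank order, in the 4 pairs of scans. In the second series single probe sets reach 4.09 on array A and 6.78 on array B, and in the first the points form a narrow band with SDs of 0.13 and 0.12.

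S100A6, a small calcium-binding protein, stood at 79.4 on A6 against 12.7 on A5 and at 31.3 on B6 against 15.2 on B5 in the second series, but at 169.7 on A2 against 90.3 on A1 and at 430.2 on B2 against 269 on B1 in the first. Its scan before the second staining had been at 364 on array A (A4). Levels of the second series as deposited were thus below those of the first at both steps. Another probe set, annotated with more than 1 gene and therefore left unnamed, stood at 163 on A6 against 12.7 on A5 and at 239 on B6 against 2.18 on B5, whereas in the first series it stood at 155 on A2 against 81.0 on A1 and at 451 on B2 against 278 on B1. CFL1, cofilin, stood at 124 on A6 against 12.9 on A5, and TPT1 at 114 against 24.9, while on array B their changes in the second series were 0.28 and 0.28. ATP6 of the mitochondrial genome had changes of 2.53 on array A and 0.20 on array B. HUWE1, a ubiquitin ligase, had changes of 1.02 on array A and 2.60 on array B. The probe set of RPL41 went the other way on array B, at 102 on B6 against 340.2 on B5. The probe sets that stood out thus mostly differed between the arrays. The unnamed set and that of FTH1P5, with 2.53 on array A and 1.35 on array B, stood out on both. No probe set passed in the limma test of the second against the first series (907 higher and 645 lower by unadjusted p under 0.05, 1.66% and 1.18%). With 1 pair left out, the probe sets past the adjusted threshold numbered 18 higher and 18 lower without A2 and A1, 2 and 2 without A6 and A5, 105 and 257 without B2 and B1, and 3 and 0 without B6 and B5. In each of these fits 1 series is a single pair, which is assumed to vary like the pairs of the other series.

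Different probe sets annotated with the same gene were compared by brightness, and such probe sets need not read the same transcript. Of the 10523 genes with more than 1 probe set, 1011 had their brightest one in the highest decile and their dimmest one in the fifth decile or below. In these genes the brightest probe set had median changes of 0.72, 0.44, 0.16 and 0.12, and the dimmest of -0.46, -0.17, 0.03 and -0.04. The brightest had the larger change in 85.9% (A2 against A1) and 78.3% (A6 against A5) of these genes, and in 55.4% (B2 against B1) and 58.6% (B6 against B5). In the wider group of 4428 genes whose probe sets differed at least 10-fold on C1, the brightest minus the dimmest had medians of 0.86, 0.43, 0.05 and 0.06, and on array B the brightest had the larger change in 52.3% and 53.2%. In 240 of the 1011 genes it had the larger change in 4 of 4 pairs, and in 7 the dimmest had. Where the probe sets of a gene differed less than 2-fold on C1 the median difference was 0.02, -0.01, 0.05 and 0.02, so that on array B the wider group hardly stood apart. EIF1 is an example, and its probe sets are named after their values were seen. The probe set at 398.5 times the median of C1 had changes of 0.98, 0.58, 0.69 and 0.26, that at 6.85 times of 0.48, 0.27, 0.28 and 0.10, and that at 0.679 times of -0.77, -0.72, 1.81 and 0.10. A further one, at 3.55 times, is the EIF1 entry among the 10 highest, with 2.14, 2.30, 0.96 and 0.55. For ENO1 the probe sets at 411, 5.80 and 1.86 times the median of C1 had mean changes of 0.69, 0.36 and -0.16.

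Bright probe sets of different kinds were also compared, without a test. Probe sets with the suffix _x_at contain probes that can also match other transcripts, and those with _at are held to be unique. In the highest decile the 722 _x_at probe sets had median changes of 0.91, 0.51, 0.35 and 0.19, and the 2401 _at probe sets 0.72, 0.43, 0.14 and 0.12. Their median C1 signals were 2932 and 1618, so the suffix groups also differed in brightness. In the ninth decile, where the C1 medians were alike (473.1 and 473.3), the 484 _x_at probe sets had medians of 0.56, 0.31, 0.002 and 0.005, and the 2950 _at probe sets 0.46, 0.25, -0.08 and -0.03. The share higher in 4 of 4 pairs there was 27.7% for _x_at and 17.3% for _at. In the eighth decile the order was the same in the 4 pairs, at 0.32, 0.19, -0.04 and -0.07 for _x_at and 0.28, 0.17, -0.13 and -0.09 for _at. In the fifth decile, where both had about the same C1 signal (42.5 and 41.9), the order was mixed, with medians of -0.24, -0.15, 0.07 and -0.02 for _x_at and -0.30, -0.12, 0.01 and -0.05 for _at.

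Arrays A and B differed in how strongly the deciles parted, as given above, but no single probe set passed in the limma test of array A minus array B (4506 higher and 1882 lower by unadjusted p under 0.05, 8.24% and 3.44%). In this test the smallest adjusted p was 0.412, and without the pair A6 and A5, when array A is a single pair assumed to vary like those of array B, 37 probe sets were higher and 0 lower. The first pair of array A, in which the array had met 0 stringent cycles before, was set against the other 3 pairs in the same way. The smallest adjusted p was 0.0597, and 5535 probe sets were higher and 2057 lower by unadjusted p under 0.05 (10.1% and 3.76%). The counts past the threshold depended on the setting. Among the 27338 probe sets of the upper 5 deciles, 977 had a higher and 59 a lower change in that pair, with quantile normalization 387 and 43, and on the deposited signals 11 and 0. The lone pair is assumed to vary like the other 3, which alone supply the spread. With another pair left out the comparison becomes 1 pair against 2. Some of these fits are the ones already given, 37 and 0 without A6 and A5 and, with the sign turned, 257 and 105 without B2 and B1, and the further one, without B6 and B5, had 145 and 33.

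The later washing steps, which held more cycles, mostly gave smaller changes for the same probe sets, with an exception in the second series of array B. In the highest decile array A had median changes of 0.76 over the first 2 additional cycles, 0.40 over the next 5 and 0.17 over the last 10 in the first series, and of 0.45, 0.13 and 0.03 in the second. Array B had changes of 0.19, 0.17 and 0.15 in the first series, with nearly equal steps, and of 0.14, 0.27 and -0.005 in the second. In the lowest decile array A had changes of -0.72, -0.15 and -0.03 in the first series and of -0.28, -0.05 and -0.02 in the second. The first 2 cycles exceeded the last 10 in the highest decile by 0.29 ± 0.25 (SD, n = 4 pairs), higher in 4 of 4 pairs, with a two-sided exact sign-flip p of 0.125, the smallest possible. In the other deciles tested this p was 0.375 to 1. Here too the test takes the 4 pairs, 2 on each array, as independent. By limma 0 single probe sets passed for the first 2 against the last 10 cycles, with 1363 higher and 945 lower by unadjusted p under 0.05 (2.49% and 1.73%).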

How the data were processed

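A single RNA sample of FTC-133 cells was hybridized to 3 arrays that were washed, stained and scanned repeatedly. The deposited values are linear MAS5 signals, 1 per probe set and scan, which the authors scaled to a common trimmed mean; the version of the MAS5 software is not given in the sources used here. The 8 scans at 2 and at 0 additional cycles were taken log2 and centred on each scan's median. Changes were fitted with limma 3.58.1 in R 4.3.3, with the pair (the same array and series) as a block, an intensity trend and robust variances, and Benjamini-Hochberg adjustment over 54675 probe sets (threshold 0.05). Since scans of a pair are the same array, the block is part of the design. No scans held identical values (0 pairs). The number of arrays limits the precision.

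Probe sets were named through the platform annotation: 41097 had 1 symbol, 1801 several and 11777 none, and 41043 gene IDs were found in RefSeq with 0 symbols changed. Named genes had 1 symbol, the same sign in 4 of 4 pairs and a mean log2 signal in the upper part, past the overall median, and each gene was taken once. The 10 largest each way were taken, first those past the threshold, here 0, and then others. For gene lists the 3 members brightest on C1 are given, and control probe sets; other list members in the text, such as TG, TSHR and HBB, were chosen after their values were seen. Members and lists were chosen with earlier results of these data known. Medians, counts and exact sign-flip tests came from Python 3.11.15 (pandas 2.3.3, numpy 2.4.6), and figures from matplotlib 3.10.9. The fits were tested on simulated data. Alternatives were the deposited scale, quantile normalization, an anchor on bright probe sets, an offset, a filter on dim probe sets, variance settings, other sets of scans and leaving out each pair. Values of the scans at 7 and 17 additional cycles entered the comparison of intervals and the fit on all 16 scans of arrays A and B. Quantile normalization was also run over these scans and those of array C. The level of S100A6 on A4 is from a scan at 17 additional cycles. Some control probe sets are not reported here.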

Additional observations from a re-analysis of the deposited data

Results flagged for a closer look

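Among 10 brightness deciles and 24 gene lists, there were some in which both pairs of array A moved one way and both pairs of array B the other. This difference between the arrays was not tested. As mean change on array A minus mean change on array B, it was -0.56, -0.38 and -0.29 in brightness deciles 1, 2 and 3, and 0.14, 0.34 and 0.42 in deciles 7, 8 and 9. For gene lists it was -0.46 for thyroid differentiation, -0.54 for erythroid, -0.36 for hepatocyte, -0.21 for neuron, -0.64 for germ cell genes and -0.67 for keratins of the skin.

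In 5 of 107 sets of 4 values examined, 1 pair lay far from the other 3. That is near the 1 in 20 that chance gives for any of the 4 pairs in independent sets. In all 5 the pair was A2 against A1, and for a pair fixed beforehand the chance rate is lower. The sets share scans and probe sets, so they are not independent, and the excess in this pair was not tested. The 5 outlying values were the medians of the myeloid list, at -0.41, and of skeletal and heart muscle genes, at -0.46, and the changes of NCOA1, at 3.44, LDHA, at 0.95, and PAX8, at 0.62.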

How the results depend on the processing

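The counts of probe sets past the threshold for 2 against 0 additional cycles, 0 higher and 0 lower, were also 0 and 0 with quantile normalization, an offset of 16, the brighter 27338 probe sets, other variance settings and all 16 scans of arrays A and B. They became 114 and 3 on the deposited scale, 0 and 19578 when anchored on the 100 brightest probe sets, 10 and 7 with arrays as units, 4 and 2 in the first series alone, and 36 and 33 in the second alone. The median change over all probe sets, 0.03 after centring, lay at -0.16 on the deposited scale and at -0.71 with the anchor. In the highest decile alone, a choice made after seeing the data, they were 2617 and 1 of 5468 (47.9% and 0.0183%), the lower one being GPNMB. Leaving out 1 pair gave 0 to 632 higher and 0 to 40 lower. It gave 0 to 37 higher for array A minus array B, 2 to 105 higher and 0 to 257 lower for the second minus the first series, and 37 to 257 higher and 0 to 105 lower for the first pair of array A against the others. That last comparison had 11 higher on the deposited scale, 387 higher and 43 lower with quantile normalization, and 977 and 59 on the brighter probe sets. List members past the threshold, 0 in all, were 31 on the deposited scale, 160 with the anchor and 0 to 123 with 1 pair left out. Of the 20 named genes 10 passed with the anchor and 0 to 1 with 1 pair left out.

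Without the pair as a block, 0 probe sets passed in limma in either direction, and 0 had passed with it, so the calls cannot show what the block does. By unadjusted p under 0.05, 149 were higher and 387 lower without the block, against 4495 and 1901 with it.

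Quantile normalization left 4 of 11 lists above all genes in 4 of 4 pairs. It turned the sign of the distance between the end deciles on array B (-0.0888), of cre minus bioB (-0.260), of the lists of translation factors (-0.00904), nuclear oxidative phosphorylation (-0.0138), chaperones (-0.0134) and mesenchymal and matrix genes (-0.00659), and of 16 of 73 probe sets in the text. These were RPS23 (-0.0316), EIF1 (-0.0319), EIF4G2 (-0.0437), GAPDH (-0.118), PSMB7 (-0.00683), COX2 (-0.000635), ATP5F1A (-0.0327), UQCRB (-0.0635), PPIA (-0.0841), HSP90AA1 (-0.0334), TYMS (-0.00804), PCNA (-0.0224), TGFBI (-0.0325), TJP1 (-0.0440), JUND (-0.0182) and a cre probe set (-0.00514). By construction this method gives all scans 1 distribution. With 1 pair left out NKX2-1 ranged from -0.142 to 0.0839, the upper value without the pair A6 and A5, and it lay at -0.06 with all pairs. Without the pair B6 and B5, 38 of the 73 passed.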
